A study of Sus scrofa with 12 samples.

Results

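The response shared by vitrified pig (Sus scrofa) blastocysts was examined by setting all 8 vitrified libraries against 3 fresh control libraries and asking which genes moved the same way in each vitrified group. The embryos were parthenogenetic, that is, grown from unfertilised eggs activated without sperm, so every group lacks a paternal genome. The fresh control was not frozen. The vitrified groups are vitrification (2 libraries), vitrification I (3 libraries) and vitrification II (3 libraries), and the labels do not say how their procedures differed. The series title names liquid helium without tying it to a group. The series has 12 samples in 4 groups, and vitrification replicate 3 was not analysed here. Libraries were made with Smart-Seq2, which primes on poly(A) tails and amplifies cDNA from very small inputs. The labels give blastocyst as the source but describe sorted single cells in the protocol, so a library may be 1 cell. Nothing says that libraries came from separate embryos, so p-values here speak to the variation among libraries alone, part of which may be technical.

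Vitrification cools cells so fast that water sets as a glass and ice crystals do not form, with the help of concentrated cryoprotectants. A blastocyst consists of an outer epithelium, the trophectoderm, which pumps fluid into the cavity and later attaches to the uterus, and an inner cell mass. Its cells rely on mitochondria for energy, and mitochondria keep their own thioredoxin and glutaredoxin proteins that maintain protein thiols and supply iron-sulfur clusters.

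Levels are deposited FPKM values, which correct fragment numbers for the length of a gene and the size of its library. Of 31781 gene identifiers, 9411 reached 1 FPKM in at least 3 libraries and were tested, and 8158 of these (86.7%) have a symbol. A gene was called at a Benjamini-Hochberg adjusted p under 0.05 in limma on log2(FPKM + 1). The median gene was 0.28 higher on that scale in the vitrified libraries together, 0.19 higher in vitrification, 0.06 lower in vitrification I (a median of -0.06) and 0.62 higher in vitrification II. Every log2 change below is given relative to the median gene of its comparison, with the SE from limma, while the test itself was of the unshifted change. Since 1 was added to each value, changes of low genes are understated.

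When the vitrified libraries were pooled, 72 genes rose (0.765% of those tested) and 10 fell (0.106%). Among the 7 fallen genes with a symbol were 4 for mitochondrial proteins, TXN2, CHCHD10, GLRX5 and CYC1. The risen genes included PTGS2 and the attachment genes LAMC1, ITGA6 and SDC1, the translation regulators MKNK2 and EIF4G2, and the membrane traffic genes CLTC and SEC24A. The relative change of the risen genes ran from 1.22 to 3.07 (median 1.84), and that of the fallen genes from -4.47 to -1.90 (median -2.28). The risen genes were low in fresh embryos, with a median level of 2.52 FPKM against 16.3 FPKM after vitrification, while the fallen genes had a median of 71.4 FPKM in fresh control and 14.2 FPKM after vitrification. The median over all genes tested in fresh control was 3.24 FPKM. The smallest adjusted p of limma was 0.0314, and before adjustment 1450 genes reached p under 0.05 on the higher side and 242 on the lower.

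**Figure D1:**
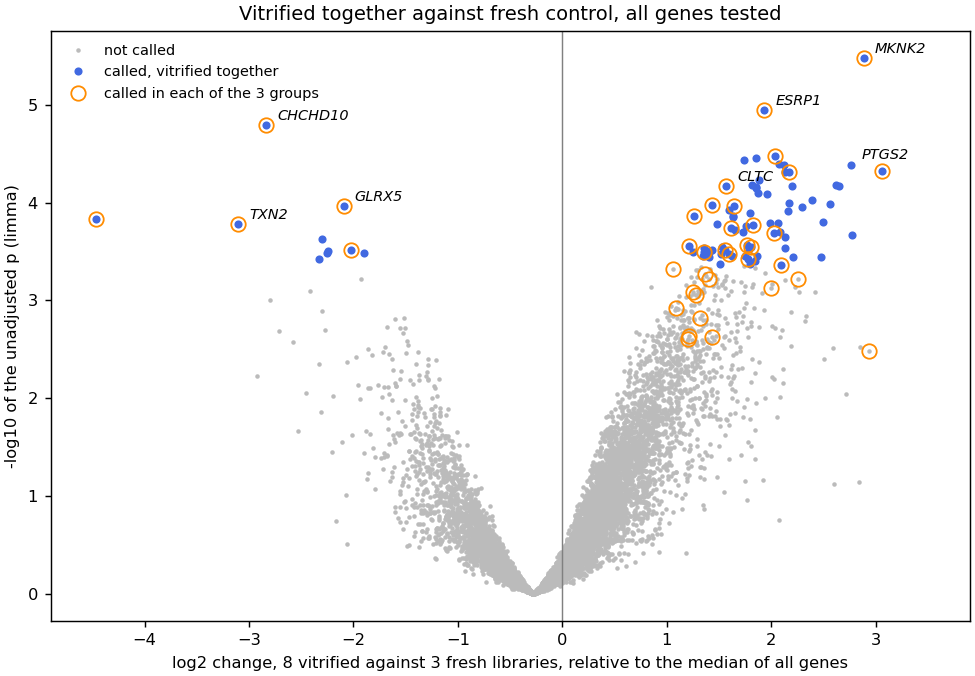
Log2 change of the 8 vitrified against the 3 fresh libraries, relative to the median gene (horizontal axis), against -log10 of the unadjusted limma p (vertical axis) for the 9411 genes tested. Blue points are the 82 genes called with the vitrified libraries together and orange rings the 38 genes called in each vitrified group. Called genes lie mostly on the right, and the test is centred on a change of 0 before the median shift of 0.28 was taken off.

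A stricter view asks for a call against fresh control in each vitrified group separately. There, 33 genes rose in each of the 3 groups (0.351%) and 5 fell in each (0.0531%). These comparisons share the same 3 fresh libraries, so agreement among them is partly built in. In vitrification 1.25% of genes were called higher and 0.117% lower, in vitrification I 8.85% and 9.77%, and in vitrification II 24.6% and 1.09%. All 72 risen and 10 fallen genes of the joint comparison were also called in vitrification I and in vitrification II, and 20 risen and 5 fallen genes were called in vitrification as well. The 20 are 27.8% of the genes that rose in the joint comparison and 60.6% of those that rose in each group. By sign alone, 3328 genes were higher in all 3 groups (35.4%) and 1024 were lower in all 3 (10.9%). Another 128 genes were called higher in 1 vitrified group and lower in another.

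Every vitrified library lay above every fresh library for 742 genes (7.88%) and below for 94 (0.999%). Among the called genes of the joint comparison this held for 69 of the 72 that rose and 8 of the 10 that fell. Calls and overlap rest on the same values, so this is not separate support. The exceptions with a symbol were DMXL1, PPP4R3A and SLC20A1. SLC20A1, a phosphate transporter, had 45.6, 2.61 and 10.5 FPKM in fresh control replicates 1 to 3 and at least 35.3 FPKM in the vitrified libraries, so that fresh control replicate 1 alone overlapped them. Replicate 1 was the highest fresh library for 43 of the 72 risen genes, and vitrification replicate 1 was the lowest vitrified library for 39.

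How many genes were called depended on single libraries. Leaving out fresh control replicate 2, fresh control replicate 3, vitrification I replicate 2 or vitrification II replicate 3 left 0 genes called by limma in the joint comparison, with 821, 977, 1552 and 1540 genes at an unadjusted p under 0.05. Without fresh control replicate 1, 3 genes were higher and 0 lower, and without vitrification II replicate 2, 4 were higher and 1 lower. Without vitrification replicate 2 the counts were 31 and 3, and without vitrification I replicate 1 they were 32 and 3. Without vitrification replicate 1 they rose to 238 and 16. The set called in each group became empty without fresh control replicate 2 or vitrification replicate 2 (239 and 201 genes at an unadjusted p under 0.05 in all 3 groups). It held 6 higher and 2 lower genes without fresh control replicate 3, and 58 and 5 without vitrification replicate 1. Without vitrification II replicates 1, 2 and 3 in turn it held 16, 14 and 15 higher genes and 5, 2 and 2 lower ones, and without vitrification I replicates 2 and 3 it held 36 and 45 higher and 10 and 8 lower. In each of 24 alternative settings, every one of the 82 called genes that was tested kept its direction and an unadjusted p under 0.05. These genes were picked for large changes in libraries that the settings reuse, so this outcome was largely fixed in advance.

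**Figure D2:**
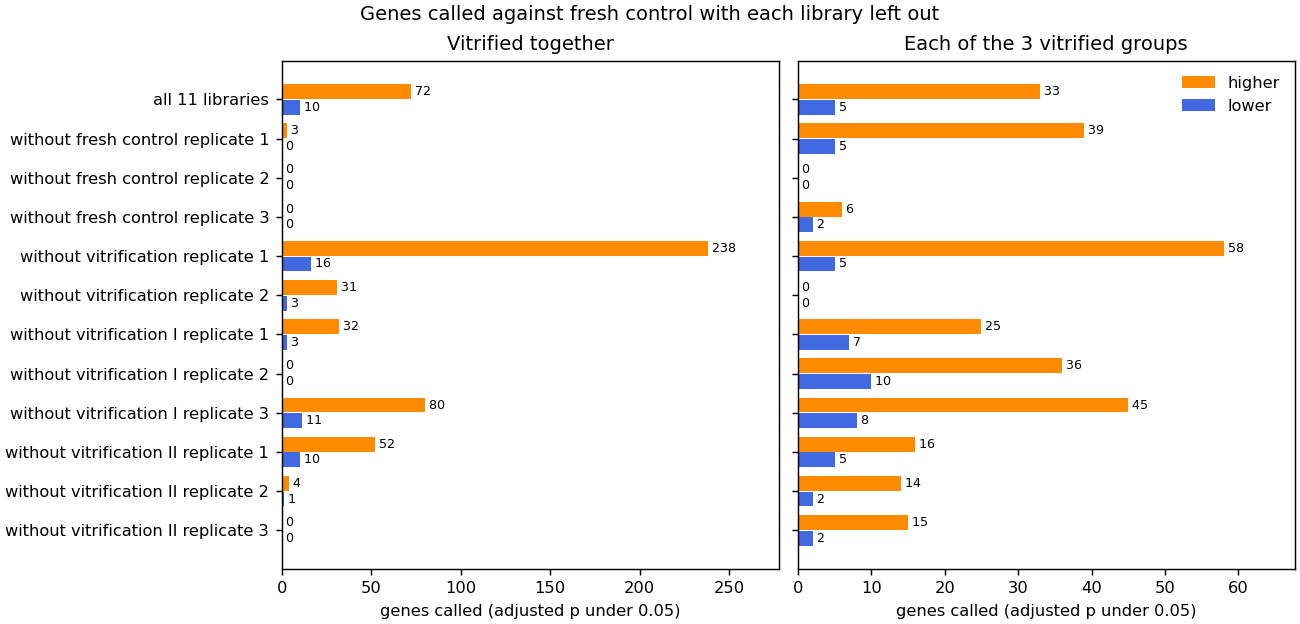
Number of genes called higher (orange) and lower (blue) against fresh control in limma, with all 11 libraries and with each library left out, for the joint comparison (left) and for genes called in each vitrified group (right). Bars start at 0, and the joint count runs from 0 to 238 higher genes.

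The balance of rises and falls depended on scaling. As deposited, 87.8% of the called genes were higher. After quantile normalization 32 were higher and 32 lower (50% higher), and after centring each library on its median 18 were higher and 45 lower (28.6% higher). Under the deposited, quantile, median-centred and non-mitochondrial scalings alike, 27 genes were called, 18 higher and 9 lower. Those with a symbol were TXN2, CHCHD10, GLRX5, CYC1, FAAH and RBPMS among the lower, and among the higher MKNK2, EIF4G2, PTGS2, CLTC, CLINT1, SEC24A, WASHC5, CRK, RAPGEF2, HK2, PIGA, KPNA4, CAND1, CUL4B, MTFR1 and RCBTB1. TXN2, CHCHD10 and RCBTB1 were called in each of the 3 vitrified groups under all 4 scalings.

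TXN2 (ENSSSCG00000000144), the thioredoxin of mitochondria, fell most among genes with a symbol. It had 84.1, 74.0 and 72.5 FPKM in fresh control, 10.9 and 8.47 in vitrification, 4.38, 6.94 and 2.26 in vitrification I and 24.3, 26.5 and 18.4 in vitrification II. All 8 vitrified libraries lay below the fresh ones, and the vitrified groups did not overlap each other. The joint change was -3.10 ± 0.57 (adjusted p = 0.038), and the changes in the 3 groups were -3.06, -3.84 and -2.33. The vitrified groups differed among themselves in TXN2 (limma F test, adjusted p = 0.00391), a test that called 30.7% of all genes.

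CHCHD10 (ENSSSCG00000010073), a small protein of the mitochondrial intermembrane space, had 87.4, 112 and 79.8 FPKM in fresh control. It had 9.40 and 15.1 FPKM in vitrification, 10.7, 15.8 and 8.79 in vitrification I and 38.8, 19.3 and 14.3 in vitrification II. The fresh and vitrified libraries did not overlap, and the highest vitrified library was vitrification II replicate 1. CHCHD10 fell by 2.83 ± 0.42 on the log2 scale (adjusted p = 0.0338), with changes of -3.04, -2.84 and -2.63 in the 3 groups.

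GLRX5 (ENSSSCG00000002496), the mitochondrial glutaredoxin that passes on iron-sulfur clusters, had 55.8, 69.2 and 75.6 FPKM in fresh control. Levels were 14.5 and 20.1 FPKM in vitrification, 13.7, 33.4 and 18.0 in vitrification I and 23.4, 15.8 and 12.8 in vitrification II. The vitrified groups overlapped each other but not the fresh control. Its change was -2.10 ± 0.35 (adjusted p = 0.0358). CYC1 (ENSSSCG00000031918), cytochrome c1 of respiratory complex III, was at 281, 451 and 290 FPKM in fresh control and at 82.5 and 80.6 FPKM in vitrification. In vitrification I it was at 62.1, 86.0 and 39.8 FPKM, and in vitrification II at 223, 108 and 69.4 FPKM. Vitrification II replicate 1 came closest to the fresh libraries, and the groups still did not overlap (-2.26 ± 0.43, adjusted p = 0.0448). CYC1 was called in the joint comparison but not in every group separately.

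The other fallen genes with a symbol have roles outside mitochondria. RBPMS, an RNA-binding protein, had 51.4 ± 3.34 FPKM in fresh control (SD, n = 3) and 7.97 to 30.5 FPKM in vitrified libraries (-2.02 ± 0.38, adjusted p = 0.0448), and it fell in each group. FAAH, the enzyme that degrades the endocannabinoid anandamide, had 15.8, 24.9 and 26.5 FPKM in fresh control and 2.06 to 8.75 FPKM after vitrification (-2.24 ± 0.43, adjusted p = 0.0448). LRPAP1, a chaperone of lipoprotein receptors in the endoplasmic reticulum (ER), had 91.4, 245 and 220 FPKM in fresh control and 20.0 to 68.8 FPKM after vitrification (-2.33 ± 0.45, adjusted p = 0.0454). None of these 3 genes overlapped between fresh and vitrified libraries, which the rule for naming the largest joint falls required.

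**Figure D3:**
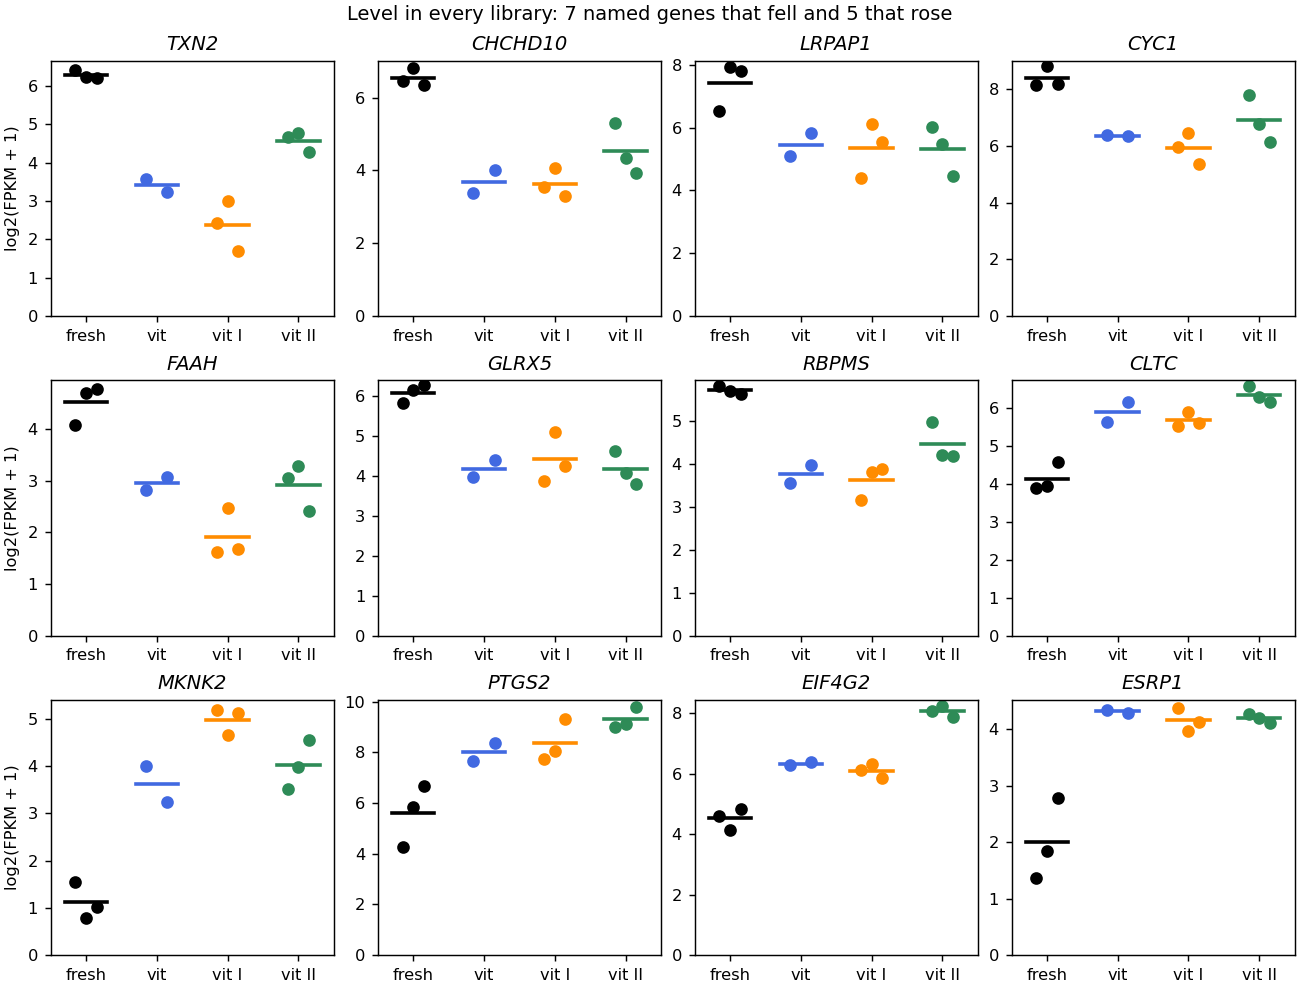
Level of 12 called genes in every library, as log2(FPKM + 1) on the vertical axis, by group (fresh control, vitrification, vitrification I, vitrification II). Points are libraries and horizontal lines group means, and in each panel all 8 vitrified points lie on the same side of the 3 fresh points. Most of these genes were picked by a rule that required this.

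CYC1 was the only nuclear gene of the respiratory chain that passed the joint test, while most of the others had values below 0. Of 65 genes tested in that list, 1 fell (CYC1) and 0 rose, against 0.106% and 0.765% of all genes. At an unadjusted p under 0.05 in limma 20 were lower, against 242 of all 9411 genes tested. The median relative change of the list was -0.87, against 0 for all genes, and it was -0.96, -0.52 and -1.14 in the 3 vitrified groups. By sign 57 were lower in all 3 groups and 0 were higher, against 10.9% and 35.4% of all genes. For 12 members every vitrified library was below every fresh one, against 0.999% of all genes. Under quantile normalization the median was -0.40 and 35 members were lower in all 3 groups, against 24.9% of all genes under that scaling, and 5 were lower with no overlap, against 3.02%.

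The 12 cover several complexes of the chain. NDUFB11, of complex I, had 224 to 274 FPKM in fresh control and 71.1 to 138 FPKM in vitrified libraries (-1.50 ± 0.33, adjusted p = 0.0799). UQCRFS1, the Rieske iron-sulfur protein of complex III, had 112 to 124 FPKM and 27.8 to 95.0 FPKM (-1.25 ± 0.38, adjusted p = 0.197). COX5A, of complex IV, had 612 to 834 FPKM and 267 to 506 FPKM (-1.17 ± 0.32, adjusted p = 0.158). NDUFB1, NDUFB4, NDUFB8, NDUFV2, UQCR11, ATP5MG, ATP5PB and ATP5PO completed the 12 with CYC1. The mitochondrially encoded respiratory genes followed another pattern, with 0 of 13 called and group medians of -0.15, 0.39 and -1.86. Their share of all FPKM was 37.6% to 43.9% in fresh control and 16.9% to 64.3% in vitrified libraries, and because FPKM is relative to the library, the part of that share in other genes' changes was examined only through the non-mitochondrial scaling, under which the list median of the nuclear genes was -0.79. Under that scaling 38 of the 65 were lower in all 3 groups (8.63% of all genes) and 7 were lower with no overlap (0.669% of all genes).

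Further mitochondrial and ribosomal lists had medians below 0 with few or no calls. Mitochondrial ribosomal proteins (64 genes, 0 called) had a median of -0.59, the tricarboxylic acid cycle (21 genes, 0 called) -0.59, and cytoplasmic ribosomal proteins (53 genes, 0 called) -0.77. In these 3 lists the medians were below 0 in every vitrified group. Under quantile normalization the medians were -0.42, -0.43 and -0.15 in the same order. By sign, 56.25%, 33.3% and 28.3% of the genes were then lower in all 3 groups, against 24.9% of all genes under that scaling. Low medians were not particular to such lists, since 17 of the 37 lists lay below the median of all genes. Proteasome subunits (39 genes, 0 called) had a median of -0.43 and glycolysis (23 genes) -0.58, both below 0 in every vitrified group. The thioredoxin, glutathione and antioxidant list (49 genes) had a median of -0.38, with TXN2 and GLRX5 lower and 1 gene higher. That gene, NFE2L1, a transcription factor of proteasome and stress genes, was at 1.02, 1.09 and 1.00 FPKM in fresh control and at 4.26 to 5.60 FPKM in the 8 vitrified libraries (1.26 ± 0.31, adjusted p = 0.0374). Its relative NFE2L2, the main activator of antioxidant genes, had 68.2 to 105 FPKM and 42.1 to 68.1 FPKM (-0.83 ± 0.31, adjusted p = 0.371).

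Among the risen genes, implantation and attachment was the list with the most calls, 4 of 30 tested, against 0.765% of all genes. Its median relative change was 0.70, and 0.96, 0.72 and 0.75 in the 3 groups. For 8 members every vitrified library was above every fresh one, against 7.88% of all genes. PTGS2 (ENSSSCG00000015579), the inducible cyclooxygenase that makes the precursor of prostaglandins, had 18.1, 56.4 and 100 FPKM in fresh control. It had 203 and 326 FPKM in vitrification, 213, 261 and 635 in vitrification I and 511, 560 and 885 in vitrification II. The lowest vitrified library was above the highest fresh one, and the fresh libraries differed widely from each other (2.76 ± 0.54, adjusted p = 0.0338).

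LAMC1, ITGA6 and SDC1 act at the basement membrane and cell surface. LAMC1, a laminin chain, had 2.73, 1.03 and 1.41 FPKM in fresh control and 6.29 to 21.8 FPKM in vitrified libraries, and it rose in each group (2.04 ± 0.40, adjusted p = 0.0338). ITGA6, a laminin-binding integrin subunit, had 0.433, 1.27 and 0.409 FPKM and then 3.31 to 10.4 FPKM (1.88 ± 0.40, adjusted p = 0.0338). SDC1, a heparan sulfate proteoglycan, had 2.66, 2.04 and 3.12 FPKM, then 4.05 and 9.05 in vitrification and 13.4 to 23.2 in the other vitrified libraries (1.86 ± 0.47, adjusted p = 0.0448). The vitrified groups differed in SDC1 (F test, adjusted p = 0.0193), which was lowest in vitrification. ERBB3, a receptor partner for neuregulins, was called in each group though not in the joint comparison, at 1.07 to 1.57 FPKM in fresh control and 3.67 to 10.9 FPKM after vitrification (1.36 ± 0.38, adjusted p = 0.0557).

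ESRP1, SCNN1A and SLC7A8 were called in epithelial or transport roles, while of 31 epithelial junction genes 0 were called. Before adjustment, limma gave p under 0.05 for 11 of the 31 on the higher side and 0 on the lower, against 1450 and 242 of all 9411 genes tested. Of 16 water and ion transport genes 1, SCNN1A, was called, and of 36 carrier genes 1, SLC7A8, against 0.765% of all genes called higher. ESRP1 (ENSSSCG00000006099), a splicing regulator of epithelial cells, had 1.59, 2.56 and 5.90 FPKM in fresh control and a narrow range of 14.6 to 19.7 FPKM over the 8 vitrified libraries (1.93 ± 0.35, adjusted p = 0.0338). SCNN1A, a subunit of the epithelial sodium channel, had 0.194 to 0.839 FPKM and then 1.50 to 8.96 FPKM (1.81 ± 0.45, adjusted p = 0.0448). SLC7A8, a carrier of neutral amino acids, had 10.7 ± 2.06 FPKM (SD, n = 3) and then 28.3 to 139 FPKM (1.77 ± 0.44, adjusted p = 0.0448). All of these rose in each vitrified group. The trophectoderm transcription factor TFAP2A was at 13.7, 9.42 and 6.21 FPKM in fresh control, at 20.9 and 35.4 in vitrification, at 154, 95.8 and 121 in vitrification I and at 50.4, 88.6 and 133 in vitrification II. It rose by 2.56 ± 0.55 (adjusted p = 0.0358), and its level differed among the vitrified groups (F test, adjusted p = 0.0095). MSX2, a homeobox factor, had 1.83 to 2.75 FPKM in fresh control, 5.35 and 11.3 in vitrification and 19.4 to 45.1 in the other vitrified libraries (2.62 ± 0.54, adjusted p = 0.0338).

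TFAP2A was the only called gene among the markers of cell types that were checked. Of 18 trophectoderm markers 15 were tested, with a summed level of 10841 to 16188 FPKM in fresh control and 2882 to 22830 FPKM in vitrified libraries. CDX2 and GATA3 were not called (changes of -0.21 ± 0.39 and -0.06 ± 0.42). Of 18 epiblast markers 8 were tested and 0 called, with sums of 95.1 to 172 FPKM and 52.5 to 303 FPKM, and NODAL was at 0 throughout. Of 16 hypoblast markers 9 were tested and 0 called, with sums of 155 to 429 FPKM and 27.4 to 1021 FPKM, and FOXA2 and CER1 were at 0 throughout. In such samples fewer cells of a type and less RNA per cell cannot be told apart. Markers of cumulus cells (1 of 12 tested, HAS2 and PTX3 at 0), leukocytes and erythroid cells (4 of 12, PTPRC, CSF1R and ALAS2 at 0) and maternal oocyte transcripts (1 of 12, ZP3, ZAR1 and NLRP5 at 0) summed to at most 57.4, 20.5 and 8.05 FPKM in fresh control and to at most 82.8, 17.1 and 18.8 FPKM in vitrified libraries. Their part in the results was not tested.

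MKNK2, EIF4G2 and LARP1, which act in translation, were among the risen genes, while the list of translation factors as a whole had a median below that of all genes. MKNK2 (ENSSSCG00000013448), a kinase that phosphorylates the cap-binding factor eIF4E, had the smallest p of all genes with 1.94, 0.729 and 1.02 FPKM in fresh control. It had 15.1 and 8.46 FPKM in vitrification, 35.5, 24.2 and 33.9 in vitrification I and 10.4, 14.9 and 22.7 in vitrification II. Every vitrified library was above the fresh ones (2.89 ± 0.45, adjusted p = 0.0314). EIF4G2 (ENSSSCG00000013405), which drives cap-independent translation, had 23.4, 16.6 and 27.4 FPKM in fresh control, 77.4 and 82.4 in vitrification, 69.5, 79.5 and 56.6 in vitrification I and 268, 302 and 234 in vitrification II. The joint change was 2.10 ± 0.53 (adjusted p = 0.0495), close to the threshold, with the highest levels in vitrification II (F test among vitrified groups, adjusted p = 0.00158). Of 40 translation factors tested, EIF4G2 was the 1 that rose and 0 fell, against 0.765% and 0.106% of all genes. The list median was -0.17. LARP1, a regulator of ribosomal protein mRNAs named here after its values were seen, had 5.09 to 5.65 FPKM and then 10.3 to 64.9 FPKM (1.99 ± 0.46, adjusted p = 0.038).

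XPO1, KPNA4, HNRNPL and NOCT were also among the risen genes, and of 61 splicing factors tested 0 were called jointly, with a list median of 0.0054. Before adjustment, limma gave p under 0.05 for 7 on the higher side and 0 on the lower, against 1450 and 242 of all 9411 genes tested. XPO1, the main nuclear export receptor, had 4.81, 1.52 and 2.28 FPKM in fresh control, 7.48 and 11.3 in vitrification, 41.2, 44.5 and 46.0 in vitrification I and 22.6, 43.8 and 32.7 in vitrification II (2.65 ± 0.54, adjusted p = 0.0338). Its levels in vitrification were the nearest to fresh control (F test, adjusted p = 0.00438). KPNA4, an import receptor of the importin alpha family, had 4.16 ± 3.32 FPKM (SD, n = 3) and then 12.2 to 30.7 FPKM (2.12 ± 0.43, adjusted p = 0.0338). HNRNPL, a splicing regulator, had 6.84, 1.60 and 2.02 FPKM and then 12.5 to 47.4 FPKM (changes of 1.78, 2.98 and 1.76 in the 3 groups, joint adjusted p = 0.0338). For both genes fresh control replicate 1 was the highest fresh library. NOCT, a phosphatase of the circadian system, was at 0.455 to 1.18 FPKM and then at 2.97 to 18.1 FPKM (2.17 ± 0.47, adjusted p = 0.0358).

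Of the genes that serve membrane traffic and glycoproteins, single ones were called and their lists were not shifted alike. CLTC (ENSSSCG00000022659), the clathrin heavy chain, had 13.9, 14.2 and 22.8 FPKM in fresh control, 48.5 and 70.0 in vitrification, 45.1, 58.2 and 47.7 in vitrification I and 94.8, 77.2 and 70.0 in vitrification II. Its change was 1.57 ± 0.34 (adjusted p = 0.0338). The relative changes in the 3 groups lay close together at 1.57, 1.61 and 1.59. Before the group medians were taken off, the changes of CLTC were 1.76, 1.54 and 2.21. SEC24A, a cargo receptor of COPII vesicles that leave the ER, had 1.20, 0.204 and 1.20 FPKM and then 2.96 to 13.3 FPKM (1.79 ± 0.45, adjusted p = 0.0448). It was the 1 of 58 genes of COPI, COPII and Golgi transport that was called, against 0.765% of all genes higher, and that list's median was 0.01. The lists of ER translocation and N-glycosylation (51 genes) and of lysosome and autophagy (61 genes) had 0 joint calls and medians of -0.16 and -0.13. At an unadjusted p under 0.05 in limma, 6 and 9 of their genes were higher and 0 and 1 lower, against 1450 higher and 242 lower of all 9411 genes tested.

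EDEM3, which trims mannose from misfolded glycoproteins for ER-associated degradation, had 1.22, 1.51 and 1.72 FPKM in fresh control and 5.46 to 27.3 FPKM after vitrification, and it rose in each group (2.03 ± 0.48, adjusted p = 0.0406). STT3B, a catalytic subunit of oligosaccharyltransferase, was called in each group but not jointly, with 1.60, 1.79 and 3.38 FPKM and then 4.75 to 33.5 FPKM (2.00 ± 0.54, adjusted p = 0.0576). TM9SF3, a membrane protein of the secretory pathway, behaved likewise, with 2.81 to 5.42 FPKM in fresh control, 44.5 to 83.2 in vitrification I and 12.4 to 32.6 in the other vitrified libraries (2.26 ± 0.59, adjusted p = 0.0567). GALNT1, which starts O-linked glycans, had 3.29 to 6.33 FPKM and then 9.16 to 30.3 FPKM (1.52 ± 0.39, adjusted p = 0.0448). GALNT1 was the 1 called gene of 30 Golgi glycosyltransferases, whose median was 0.48. Of the 30, 9 were higher with no overlap between vitrified and fresh libraries, against 7.88% of all genes, and the 1 call stands against 0.765%. OSBP, a lipid transfer protein at ER and Golgi contacts, had 1.05 to 1.25 FPKM and then 3.61 to 10.0 FPKM (1.36 ± 0.36, adjusted p = 0.0448).

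Some adaptors and regulators of actin and adhesion were called, but the actin and tubulin list as a whole was not higher. Of its 52 genes 1 was called higher, against 0.765% of all genes, and its median was -0.42 (-0.39, -0.79 and 0.09 in the 3 groups). By sign 10 were higher (19.2%) and 11 lower (21.2%) in all 3 groups, against 35.4% and 10.9% of all genes. Under quantile normalization the shares were 23.1% and 17.3%, against 21.6% and 24.9% of all genes, and the median was -0.02. CRK, an adaptor of focal adhesion signalling, rose in each group, with 3.27, 2.08 and 3.78 FPKM in fresh control and 8.76 to 23.3 FPKM after vitrification (1.64 ± 0.37, adjusted p = 0.0358). LASP1, an actin-binding scaffold, had 13.2, 8.17 and 8.66 FPKM in fresh control and then 24.5 to 198 FPKM (2.29 ± 0.50, adjusted p = 0.0358). MARCKS, which links actin to the plasma membrane, had 20.6, 6.24 and 5.15 FPKM and then 26.2 to 131 FPKM (2.50 ± 0.56, adjusted p = 0.038). The GTPases RAC1 and RHOB, which organise actin, and CRKL, a relative of CRK, were named after their values were seen. RAC1 rose in each group and jointly (1.55 ± 0.40, adjusted p = 0.0448), RHOB jointly (1.87 ± 0.41, adjusted p = 0.0351), and CRKL in each group, with a joint change of 1.09 ± 0.35 (adjusted p = 0.0732).

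HK2, CDS1 and CUL4B were each the 1 gene that rose in its list, and PIK3R1 and RCBTB1 belong to none of the lists. Those lists held 23, 35 and 53 tested genes, and 0.765% of all genes were called higher. The 1 call in each is therefore not read as a result about the list. HK2, the hexokinase that feeds glucose into glycolysis, had 1.45, 0.515 and 1.18 FPKM in fresh control and then 3.68 to 13.4 FPKM (1.73 ± 0.42, adjusted p = 0.0401), in a glycolysis list of 23 genes whose median was -0.58. CDS1, an enzyme of phospholipid synthesis, had 1.13 to 1.61 FPKM and then 3.93 to 9.75 FPKM (1.41 ± 0.37, adjusted p = 0.0448). PIK3R1, the regulatory subunit of phosphoinositide 3-kinase, had 6.19, 1.39 and 1.09 FPKM and then 7.25 to 28.1 FPKM (2.08 ± 0.49, adjusted p = 0.0401). CUL4B, a scaffold of ubiquitin ligases, had 0.897 to 1.15 FPKM and then 3.41 to 10.6 FPKM (1.51 ± 0.40, adjusted p = 0.0495), and RCBTB1, a ubiquitin ligase adaptor, had 1.06 to 1.85 FPKM and then 3.99 to 18.0 FPKM (1.78 ± 0.46, adjusted p = 0.0454).

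Another 28 risen genes with a symbol had relative changes from 1.22 to 2.16, and 26 of them had no overlap between vitrified and fresh libraries. They include kinases and signalling proteins (CAB39, DYRK1A, MAP4K4, PIK3CB, RAPGEF2, TGFBR1), polarity and scaffold proteins (AFAP1L2, DLG1, WWC1, WWC2), endosome and vesicle proteins (CLINT1, DMXL1, WASHC5), nuclear and RNA-binding proteins (ALYREF, FOXN3, GTF2A1, QKI, UBP1), and the cytokinesis protein CEP55. The remainder are ANO6, CAND1, CCDC117, GPBP1L1, LRATD2, MINPP1, MTFR1, PIGA and PPP4R3A. AFAP1L2, CCDC117, CEP55 and WWC1 met the naming rule, and the others are named after their values were seen. A further 9 risen and 3 fallen identifiers had no symbol.

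**Figure D4:**
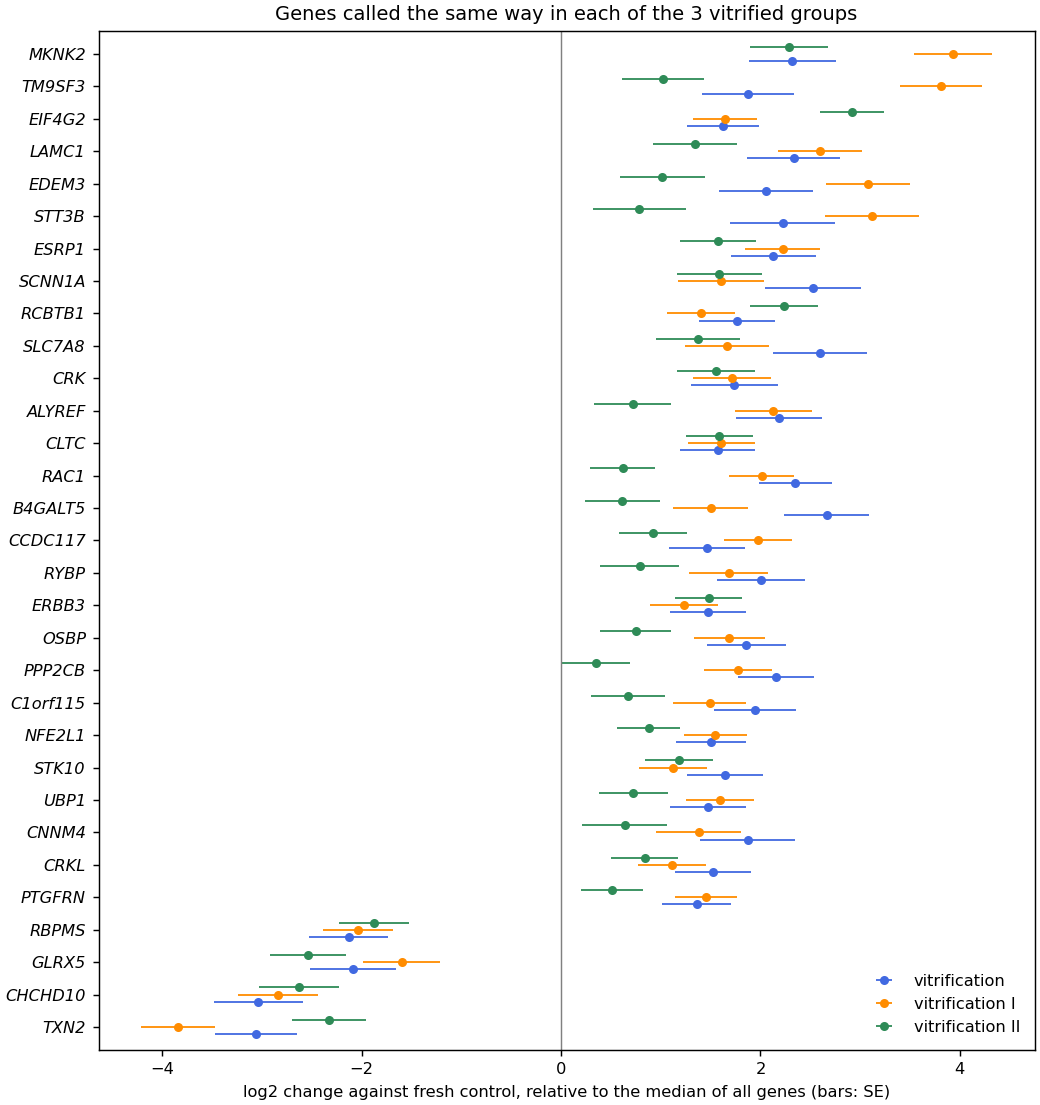
Log2 change against fresh control, relative to the median gene, in vitrification (blue), vitrification I (orange) and vitrification II (green) for 31 genes with a symbol that were called in each group. Bars are SE from limma, the 3 groups share the same fresh libraries, and the 27 risen genes lie right of 0 while TXN2, CHCHD10, GLRX5 and RBPMS lie left of it.

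Shared direction did not mean equal size. Of the 82 genes called jointly, 15 differed among the vitrified groups in the F test, and of the 38 called in each group, 9 did, against 30.7% of all genes. The joint fit counts differences among vitrified groups as spread, so it tends to pass over genes that differ among them. Among the 72 risen genes the relative change was largest in vitrification I for 56, and smallest in vitrification for 40 and in vitrification II for 29. Group medians of 0.19, -0.06 and 0.62 were taken off first, which raises vitrification I against the others. The ranking was not made on unshifted changes. Those of MKNK2 were largest in vitrification I (2.50, 3.87 and 2.90), while those of CLTC were smallest there (1.76, 1.54 and 2.21). Median relative changes of the risen genes were 1.45, 2.31 and 1.63 in vitrification, vitrification I and vitrification II. The 10 fallen genes had medians of -2.14, -2.31 and -2.43. CLTC, CRK and RBPMS were among those not called by the F test (adjusted p = 0.281, 0.557 and 0.196), which does not show that their levels were equal.

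Since 0.871% of all genes were called jointly, few calls would be found in any short set, and the values of some genes often followed in stress studies are given as a description. BAX, BCL2L1, HSPA5, HSPA8, CIRBP, RBM3, SOD1, GPX4 and FTL were not called jointly (adjusted p from 0.373 for FTL to 0.992 for CIRBP). FTL, the ferritin light chain, illustrates the split, with 3499 to 3740 FPKM in fresh control, 1581 and 2459 in vitrification, 98.0 to 515 in vitrification I and 2707 to 4375 in vitrification II (F test, adjusted p = 0.000264). TNFRSF21, a death receptor, was above the fresh libraries in all 8 vitrified ones, 11.3 to 77.4 FPKM against 4.28 to 10.2 FPKM, without passing the test (1.55 ± 0.51, adjusted p = 0.0846). Neither DNMT1 nor DNMT3A, the maintenance and de novo DNA methyltransferases, was called (0.66 ± 0.51 and 0.63 ± 0.46).

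**Figure D5:**
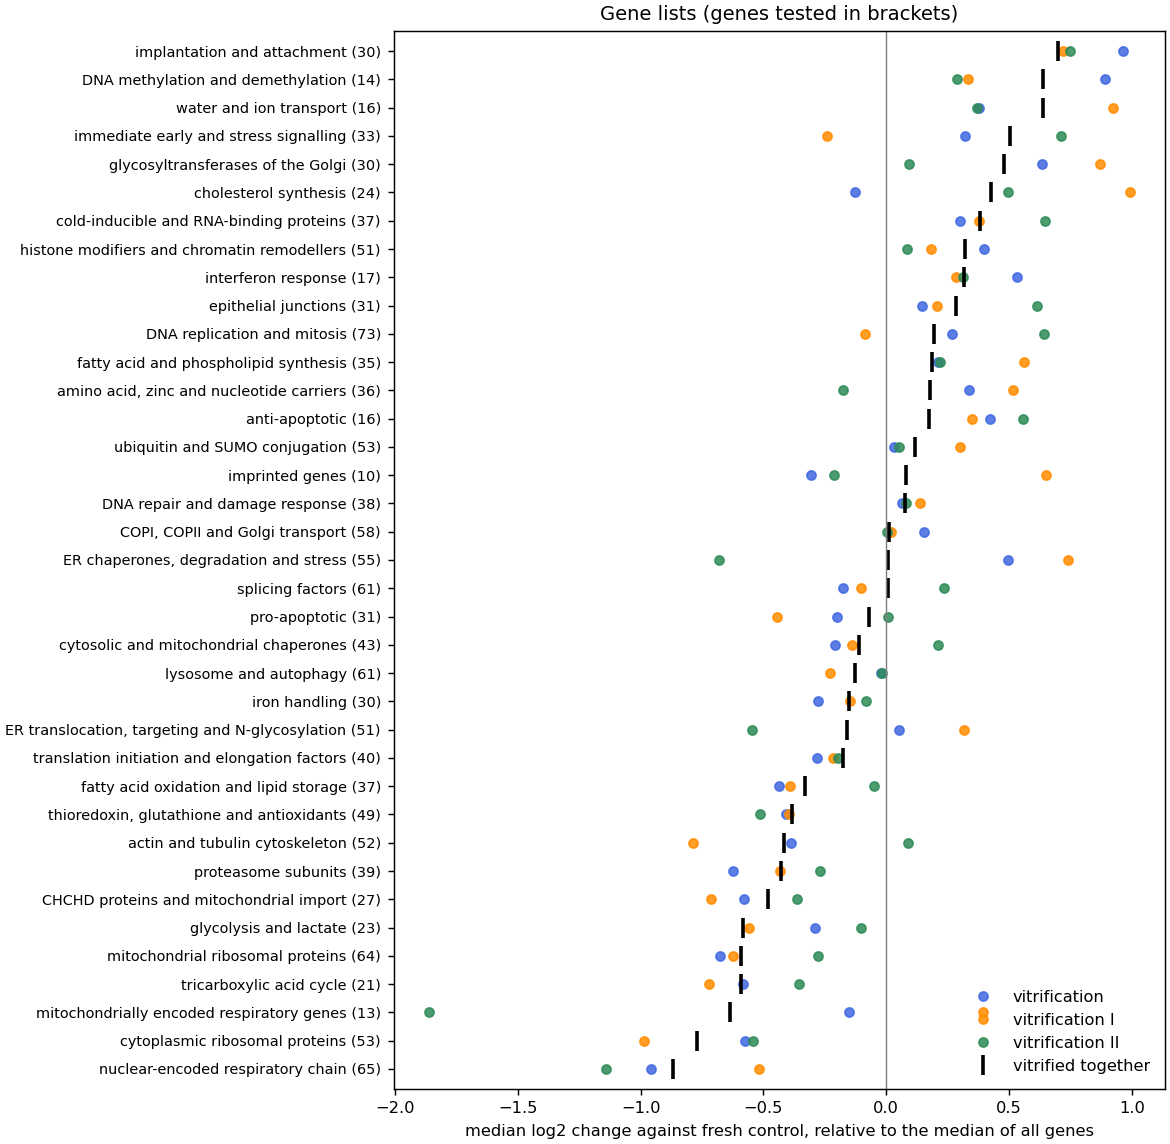
Median log2 change against fresh control, relative to the median of all genes, for 37 gene lists in vitrification (blue), vitrification I (orange), vitrification II (green) and the vitrified libraries together (black ticks), with the number of genes tested in brackets. Nuclear-encoded respiratory chain genes have the lowest median of the vitrified libraries together at -0.87 and implantation and attachment the highest at 0.70, while in single groups other lists lie further out, such as the mitochondrially encoded genes at -1.86 in vitrification II.

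Across the 37 lists, 17 held at least 1 gene called jointly and 20 held 0, and 21 of the 82 called genes (25.6%) belonged to a list, against 14.9% of all genes tested. The lists were chosen with earlier results of these data known, so this difference is not read further. List medians were above that of all genes in all 3 vitrified groups for 13 lists and below it in all 3 for 12. Water and ion transport (16 genes, median 0.64) and DNA methylation and demethylation (14 genes, median 0.64) followed implantation at the upper end, with 1 and 0 genes called. The ER chaperone, degradation and stress list had opposite medians, 0.50 and 0.74 in vitrification and vitrification I against -0.68 in vitrification II.

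None of 12 measures of whole libraries passed an exact permutation test (two-sided, smallest possible p = 0.0121), with adjusted p from 0.436 to 0.982. The nearest was the number of genes at 1 FPKM or more, 7117 ± 426 in fresh control (SD, n = 3) and 8237 ± 931 in vitrified libraries (SD, n = 8; exact permutation p = 0.0727). Sequencing depth is unknown, and summed FPKM ran from 439650 to 591894 per library.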

How the data were processed

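RNA was measured in 11 libraries. The deposited values are FPKM per Ensembl pig gene identifier, made by the authors, and, per the submitters' processing notes, the tools were DESeq2, Cufflinks 2.2.1, TopHat2 2.0.13 and FastQC, with no roles stated. The genome build is not given in the sources used here. Depth is unknown, so counting intervals cannot be formed. The log2(FPKM + 1) values were tested for genes with at least 1 FPKM in at least 3 libraries, with limma 3.58.1 (trend) in R 4.3.3. The joint comparison was a fit of 2 groups, the comparison by group a fit of 4, and the F test used vitrified libraries only. Benjamini-Hochberg adjustment ran over all genes tested. The fits were tested on simulated data.

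Genes were named by a rule. It took up to 15 rises and 15 falls with the largest joint change among called genes with a symbol, a mean of at least 5 FPKM in the higher group, no overlap and 1 sign in all groups. It took as many from those called in each group, by their smallest change, then up to 4 called members per list, a fixed set and the 10 called genes with the smallest F test p. Other genes, such as ERBB3, SLC20A1, CLINT1 and uncalled list members without overlap, were named after their values were seen. The genes and lists were chosen with earlier results of these data known. Same-numbered replicates did not deviate together (r from -0.158 to 0.143 over 15 pairs), so the numbers were not taken as pairs. Alternatives were other pseudocounts, filters, scalings, weights and blocks, and leaving out libraries or groups. No sequence is shown, and results for a few genes are not reported here.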

Additional observations from a re-analysis of the deposited data

Results flagged for a closer look

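Among genes called with the vitrified libraries together or in each group, 13 named ones differed among the 3 vitrified groups (limma F test on vitrified libraries, adjusted p). They were XPO1 (0.00438), MSX2 (0.00582), TFAP2A (0.0095), MARCKS (0.0469), LASP1 (0.0383), WWC1 (0.0215), EIF4G2 (0.00158), TXN2 (0.00391), TM9SF3 (0.00488), STT3B (0.0442), SDC1 (0.0193), RCBTB1 (0.0183) and PIK3R1 (0.0283). The F test called 30.7% of all genes, and the naming rule itself took 10 genes by their smallest F test p. XPO1, MSX2, TFAP2A, MARCKS, LASP1, WWC1, SDC1 and PIK3R1 changed least in vitrification, EIF4G2 and RCBTB1 most in vitrification II, and TXN2, TM9SF3 and STT3B least in vitrification II.

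Of the fixed genes that were not called, 12 differed among the vitrified groups, by a test that called 30.7% of all genes. TNFRSF12A (4.86e-05), BCL2L1 (0.000171) and BAX (0.0102) were highest in vitrification II, as were HSPA8 (0.00605) and CDH1 (0.00419). FTL (0.000264), AQP3 (0.000232), RBM3 (0.00791) and GPX4 (0.0308) were lowest in vitrification I. HSPA5 (0.00279) and CALR (0.00107) were highest in vitrification I, and TNFRSF21 (0.0444) in vitrification.

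For 2 of 12 measures of whole libraries a single vitrified library stood apart from the other 7 by Dixon's ratio of gap to range. Chance exceeds the limit used in about 1 in 20 groups. The rule was also applied to the named genes, and no reported gene exceeded it. With that many items screened, some would exceed it by chance. The mean log2 level of leukocyte and erythroid markers was 0.919 in vitrification replicate 2 and at most 0.540 in the others (ratio 0.573), while fresh control replicate 1 reached 0.936. The mean log2 level of maternal oocyte transcripts was 1.08 in vitrification II replicate 2 and at most 0.436 in the others (ratio 0.760).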

How the results depend on the processing

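Depth is unknown, the fresh control has 3 libraries, and counts of calls moved with most settings. The called genes kept their direction, which was largely fixed by their selection in the same libraries. Higher and lower genes of the joint comparison (72 and 10) became 298 and 16 with a pseudocount of 0.1, 8 and 7 with no filter, 118 and 9 at a filter of 5 FPKM, 32 and 32 after quantile normalization, 218 and 16 after rescaling outside the mitochondrial genome, 18 and 45 after median centring, 2616 and 444 with array weights, and 971 and 131 as the average of 3 group means. They were 0 and 0 with group as a random block (440 genes at an unadjusted p under 0.05, within-group correlation 0.477), and 212 and 19, 562 and 25, or 163 and 48 without vitrification, vitrification I or vitrification II. Leaving out 1 library gave 0 to 238 and 0 to 16. With the replicate block, for numbers that do not pair the libraries, the counts were 2 and 0, and 16 genes were higher in each group; 3 libraries correlated best with their own number.

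Genes called in each group (33 higher, 5 lower) became 276 and 35 with array weights, 2 and 15 after median centring, 7 and 13 after quantile normalization, 36 and 15 with no filter, 31 and 3 at a pseudocount of 0.1, 35 and 3 with the non-mitochondrial scaling, and 0 and 0 when each comparison was fitted on its own 2 groups (503 genes at an unadjusted p under 0.05 in all 3). Leaving out 1 library gave 0 to 58 and 0 to 10. Genes of 1 sign in all groups were 2289 (1582 higher) at the filter of 5 FPKM, 8708 (5413 higher, 3295 lower) with no filter, 2032 higher and 2345 lower after quantile normalization, and 1374 higher and 3202 lower after median centring. Genes differing among vitrified groups (2889) were 1571 with no filter, 1910 after quantile normalization, 1546 with the non-mitochondrial scaling, and 1827 to 3234 with 1 library left out. The causes were not tested.

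Uncalled genes near 0 changed sign. GATA3 (-0.06) was 0.0537 at the filter of 5 FPKM, 0.18 with no filter, 0.0776 after quantile normalization, 0.0115 with the non-mitochondrial scaling, and 0.0502 and 0.17 without vitrification and vitrification II. BAX (-0.07) was 0.0452 at the filter of 5 FPKM, 0.29 with array weights, 0.17 with no filter, and 0.13 and 0.15 without vitrification and vitrification I. CDX2 (-0.21) was 0.0430 with array weights, 0.0280 with no filter and 0.0018 without vitrification II. HSPA5 (0.46) was -0.62 with array weights and -0.23 without vitrification I, HSPA8 (-0.39) was 0.38 after quantile normalization, TNFRSF12A (-0.38) was 0.82 without vitrification I, and BCL2L1 (-0.15) was 0.0911 with no filter and 0.63 without vitrification I. With 1 library left out, HSPA5 ranged from -0.498 to 1.14, ATP1B1 from -0.16 to 0.75, GATA3 from -0.43 to 0.25, BCL2L1 from -0.60 to 0.12, NANOG from -0.0562 to 0.48, CIRBP from -0.79 to 0.0556 and BAX from -0.35 to 0.0784. Differences of vitrified from fresh then ranged from -3.91 to 2.86 percentage points for the mitochondrial share, -0.0655 to 0.23 for trophectoderm markers, -0.18 to 0.17 for leukocyte markers, -0.0359 to 0.0921 for oocyte transcripts (log2 levels) and -871 to 126 for genes above 0.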

Other observations

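Some gene groups outside the called set lay to 1 side of the fresh libraries in all 8 vitrified ones. Among 16 anti-apoptotic genes, MCL1 (3.01 to 4.77 FPKM in fresh control, 6.44 to 25.2 FPKM after vitrification, 1.39 ± 0.42, adjusted p = 0.0732 in limma), BIRC2, BIRC3, BIRC6 and XIAP were higher without overlap and 0 were called. Among 31 pro-apoptotic genes, APAF1 (0.111 to 0.576 FPKM, then 1.08 to 2.32 FPKM, adjusted p = 0.0821) and TNFRSF21 were among those higher without overlap, and 0 of the 31 were called. Of 51 histone modifiers and chromatin remodellers 11 were higher without overlap, among them EP300, CREBBP and KDM6A, and 1, HDAC2, was lower (23.6 to 40.0 FPKM, then 8.57 to 21.7 FPKM, adjusted p = 0.253). Over all genes tested, 7.88% were higher and 0.999% lower without overlap.

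Some abundant genes were lower in all 8 vitrified libraries without being called. The carrier list of 36 genes had a median of 0.18, with 5 members higher (13.9%) and 2 lower (5.56%) without overlap. Over all genes tested these shares were 7.88% and 0.999%. The 2 lower ones were SLC25A5 and SLC25A3. Of 37 genes of fatty acid oxidation and lipid storage (median -0.33) 0 were higher and 2 (5.41%), PLIN2 and ETFB, lower without overlap. SLC25A5, an ADP/ATP carrier, had 758 to 1148 FPKM in fresh control and 216 to 529 FPKM after vitrification (-1.60 ± 0.35, adjusted p = 0.0754). SLC25A3, the phosphate carrier, had 763 to 917 FPKM and then 393 to 741 FPKM (-0.83 ± 0.30, adjusted p = 0.352). PLIN2, a coat protein of lipid droplets, had 732 to 950 FPKM and then 200 to 626 FPKM (-1.54 ± 0.39, adjusted p = 0.109).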
